A study of Homo sapiens with 6 samples.

Results

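In Calu-3 cells, 1414 binding peaks of EHF (Ets homologous factor) lay in H3K27ac with H3K4me1 beside them but not at them. A peak of EHF replicate 2 was counted as flanked when it overlapped a called H3K27ac region, overlapped no H3K4me1 region, and had the edge of an H3K4me1 region at most 2000 bp from its centre. A stretch of chromosome 17 from 37500001 to 39000000 (hg19) was left out. It held 44 EHF peaks of replicate 2, and 9 of these would otherwise have been counted. Of the 5172 replicate 2 peaks in the rest of the genome, 1414 were flanked, or 27.3% (95% exact binomial interval 26.1% to 28.6%). Another 1604 lay in H3K27ac and far from H3K4me1, 291 were covered by both marks, 125 lay in H3K4me1 alone and 1738 lay in neither. The flanked peaks were chosen by their positions in these 3 lists, so the counts and the distances that follow describe the choice and carry no test.

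The data are chromatin immunoprecipitation sequencing (ChIP-seq) libraries from Calu-3, a human airway epithelial line from a lung adenocarcinoma, grown in low-glucose DMEM with fetal bovine serum. The labels name no treatment, and all 6 libraries come from this line. EHF and input DNA have 2 libraries each, and H3K4me1 and H3K27ac have 1 each. The EHF libraries were called against one input and the mark libraries against the other. Depth ran from 8418631 tags in EHF replicate 2 to 21426939 in H3K27ac, with 10176290 in EHF replicate 1 and 12989646 in H3K4me1. EHF replicate 1 gave 1537 peaks with 0.155% of its tags in them, and replicate 2 gave 5216 with 0.740%. Nothing in the labels states that the EHF libraries are from separate cultures. Every p below therefore compares positions in these libraries and not conditions or cultures. The line's identity was not checked against marker genes, since the lists hold intervals without genes. Gene names and sequence at these positions were not analysed here.

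EHF is a transcription factor of the ETS family that is found mainly in epithelial cells, and ETS factors bind DNA through a short GGAA core. H3K27ac marks active enhancers and promoters. H3K4me1 is typical of enhancers, and it also lines the shoulders of active promoters, whose centre carries H3K4me3 instead. At many active elements the DNA bound by a factor is poor in nucleosomes, so that histone marks are read from the nucleosomes on each side of it.

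H3K4me1 began close to most flanked EHF peaks. The nearest edge lay a median of 589.5 bp from the peak centre (quartiles 300.2 and 1063 bp, lowest 63, highest 1999). It lay within 250 bp at 284 peaks (20.1%), within 500 bp at 628 (44.4%) and within 1000 bp at 1022 (72.3%). The counts per 100 bp were highest from 100 to 500 bp, with 126 to 160 peaks in each step, and fell to 22 peaks between 1900 and 2000 bp. The step up to 100 bp held 57 peaks. The rule allows no edge nearer than 63 bp, so it fixes the low count in that step in part. Just past the limit, between 2000 and 2100 bp, there were 37 peaks. The nearest mark was on the side of lower coordinates at 691 peaks and on the other side at 723.

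**Figure D1:**
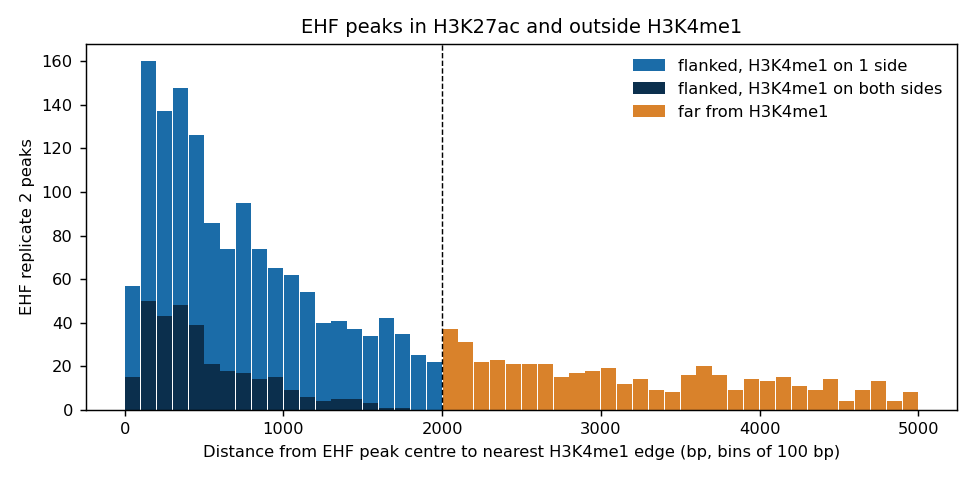
Number of EHF replicate 2 peaks in H3K27ac and outside H3K4me1 (y axis) by distance from the peak centre to the nearest H3K4me1 edge in bp (x axis, bins of 100 bp), with flanked peaks in blue, those with the mark on both sides in dark blue, and peaks far from H3K4me1 in orange past the dashed limit of 2000 bp. Most flanked peaks sit near the low end, and 72.3% of them lie within 1000 bp.

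Most flanked peaks had H3K4me1 on a single side. H3K4me1 regions lay within 2000 bp on both sides at 314 of the 1414 peaks (22.2%, 95% exact interval 20.1% to 24.5%). At these 314 the gap between the flanking regions had a median of 1412 bp (quartiles 957 and 2029 bp), and 97 gaps (30.9%) measured 1000 bp or less. The peak centre lay a median of 207 bp from the middle of the gap. One H3K27ac region spanned the whole gap at 244 of the 314 (77.7%), and at 139 (44.3%) it also enclosed the H3K4me1 regions on both sides. The caller worked with windows of 500 bp for the marks and a minimum distance of 1000 bp between peaks. No listed mark region was narrower than 501 bp. These settings limit how small a gap or a flank can be seen, and so also which peaks count as flanked on both sides.

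Seen from the peak outward, acetylation covered the centre and H3K4me1 lay beside it. Peaks were turned so that the nearest H3K4me1 region lay to the right. The turning itself fixes that H3K4me1 is more frequent on the right than on the left. Without turning, H3K4me1 cover at 1000 bp was 28.5% on the side of lower coordinates and 29.1% on the other. At the centre 98.2% of flanked peaks were in H3K27ac, and at 500 bp to the right 93.3% still were, while 44.4% were in H3K4me1 there. H3K4me1 was most frequent at 800 bp, at 51.6% of peaks, where H3K27ac still covered 78.8%. On the left side H3K4me1 reached 10.96% at 1000 bp. The H3K27ac cover at 1000 bp was somewhat higher on the H3K4me1 side, at 67.0% against 61.8% on the other. For peaks far from H3K4me1 the H3K27ac cover at 1000 bp was lower, at 50.9% and 44.5%. For peaks covered by both marks, turned by the nearest H3K4me1 region that does not overlap the peak, it was 54.3% and 51.9%.

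**Figure D2:**
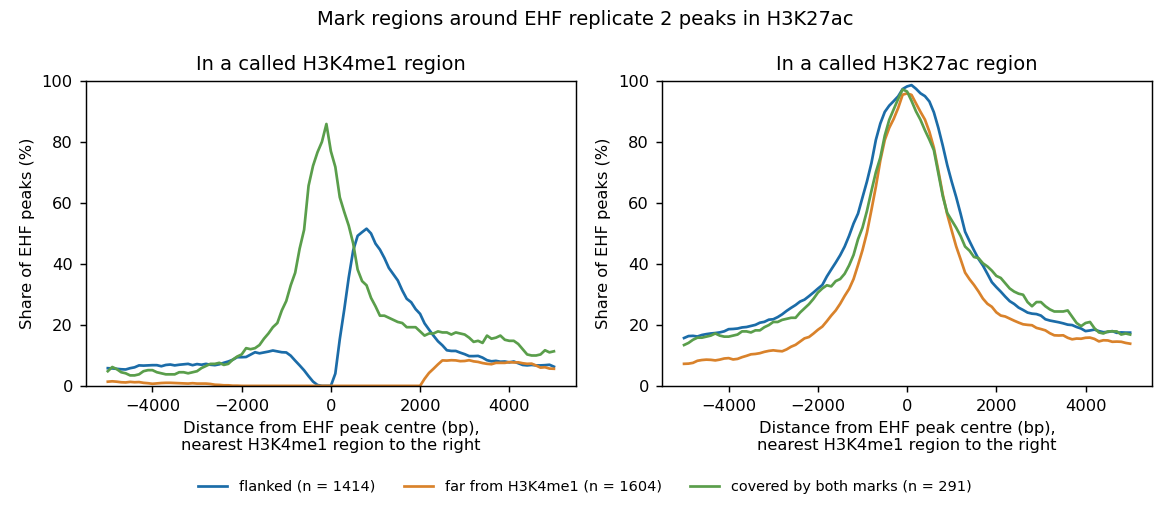
Share of EHF replicate 2 peaks (y axis, percent) whose position at each distance from the peak centre (x axis, bp) lies in a called H3K4me1 region (left) or H3K27ac region (right), for flanked peaks, peaks far from H3K4me1 and peaks covered by both marks (turned by the nearest H3K4me1 region that does not overlap the peak). For flanked peaks H3K4me1 is at 0 at the centre by the rule and reaches 51.6% at 800 bp, while H3K27ac cover is highest within 100 bp of the centre.

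The H3K27ac regions that held flanked peaks were wider than those that held far peaks or no peak. The 1414 peaks fell in 1346 regions with a median width of 2731.5 bp (quartiles 1761 and 4598 bp). The median was 1974.5 bp in the 1520 regions that held a peak far from H3K4me1, 2426 bp in the 284 that held a peak covered by both marks, and 1281 bp in the 31507 regions without a replicate 2 peak. The score per kb, which is the authors' normalized tag count of a region divided by its length, had a median of 48.6 in the hosts of flanked peaks. It was 43.9 in the hosts of far peaks, 42.7 in those of peaks in both marks and 26.7 in regions without a peak. Regions of 5000 bp or more made up 21.7% of the hosts of flanked peaks and 21.8% of the hosts of peaks in both marks. They made up 13.0% of the hosts of far peaks and 4.15% of the regions without a peak. A wider region has more room for a peak and for an H3K4me1 region near it. The choice can therefore fix these differences in width in part, and they were not tested. An H3K4me1 region met 78.7% of the hosts of flanked peaks, 9.08% of the hosts of far peaks and 99.6% of the hosts of peaks in both marks. The rule fixes these shares in part. Among the regions without a peak the share was 33.4%.

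Inside their hosts the flanked peaks lay away from the borders. The centre was a median of 983.5 bp from the nearer end of the H3K27ac region, against 707 bp for far peaks and 786 bp for peaks in both marks. As a share of the way from the border to the middle, this was 72.8% for flanked, 66.3% for far and 63.6% for both. At the 1100 peaks flanked on one side, the H3K27ac region reached a median of 1251.5 bp on the H3K4me1 side and 1107 bp on the other. It reached further on the H3K4me1 side at 611 of them (55.5%, 95% exact interval 52.6% to 58.5%). This lean was not particular to flanked peaks. For far peaks H3K27ac cover at 1000 bp was 50.9% towards the nearest H3K4me1 region and 44.5% on the other side. Most flanked peaks, 1244 (88.0%), were the only replicate 2 peak in their region.

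The nearest H3K4me1 region usually belonged to the same acetylated block. It lay wholly inside the host H3K27ac region at 763 peaks (54.0%), crossed its border at 340 (24.05%) and lay outside it at 311 (22.0%). Of those 311, the nearest H3K4me1 region met another H3K27ac region at 29 (9.32%). The 1374 distinct H3K4me1 regions nearest to a flanked peak had a median width of 635 bp and a median score of 17. For all 31933 listed H3K4me1 regions outside the chromosome 17 stretch these medians were 501 bp and 14, and for the 287 regions that held an EHF peak in both marks they were 1100 bp and 29. By these medians the flanking regions were shorter than those under EHF peaks and longer than the list as a whole. A longer region is more likely to cover a peak, and the rule counts such peaks elsewhere. The choice therefore fixes this order in part, and it was not tested.

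Recurrence was read in EHF replicate 1, a library whose peaks took no part in the choice. Of the 1414 flanked peaks, 288 overlapped a replicate 1 peak by at least 1 bp, or 20.4% (95% exact interval 18.3% to 22.6%). The share among all 5172 replicate 2 peaks was 14.8%, and among the 3309 in H3K27ac it was 17.9%. Far peaks were found in replicate 1 less often, at 249 of 1604 (15.5%, 13.8% to 17.4%), which is 4.84 percentage points below the flanked peaks (odds ratio 1.39, 95% interval 1.15 to 1.69). This passed a two-sided Fisher's exact test (p = 0.000588, Benjamini-Hochberg adjusted p = 0.00118 over 6 tests). Peaks covered by both marks were found at 54 of 291 (18.6%, 14.3% to 23.5%). That difference of 1.81 points did not pass the test (odds ratio 1.12, 95% interval 0.807 to 1.58; Fisher's exact test, adjusted p = 0.521). Both EHF libraries were called against the same input, and the part it plays in recurrence was not tested.

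Flanked and far peaks also differed in score. The deposited score of an EHF peak is its normalized tag count, and it had a median of 13 at flanked peaks (quartiles 11 and 17, highest 76) and of 12 at far peaks (10 and 15, highest 64). Scores of 24 or more were held by 10.6% of flanked, 6.23% of far and 6.87% of peaks in both marks. Among these strong peaks 90 of 150 flanked (60%), 53 of 100 far (53%) and 16 of 20 in both marks (80%) were found in replicate 1. With scores of 6 to 10 the shares were 7.67%, 6.93% and 7.46%. They were 13.2%, 11.7% and 12.6% with scores of 11 to 14. For scores of 15 to 23 they were 28.8%, 24.3% and 24.6%. Compared within 4 score classes, the excess of flanked over far peaks was 2.41 points and no longer passed (odds ratio 1.21, 95% interval 0.983 to 1.48; exact conditional Mantel-Haenszel test, p = 0.0728). Among peaks with scores of 12 or more the excess was 4.96 points (Fisher's exact test, p = 0.0158). With the replicates exchanged, 65.7% of 434 flanked replicate 1 peaks and 65.2% of 388 far ones were found in replicate 2 (Fisher's exact test, p = 0.941). In that exchange the peaks in both marks, found at 52.2% of 113, were 13.5 points below the flanked peaks (Fisher's exact test, p = 0.0117).

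**Figure D3:**
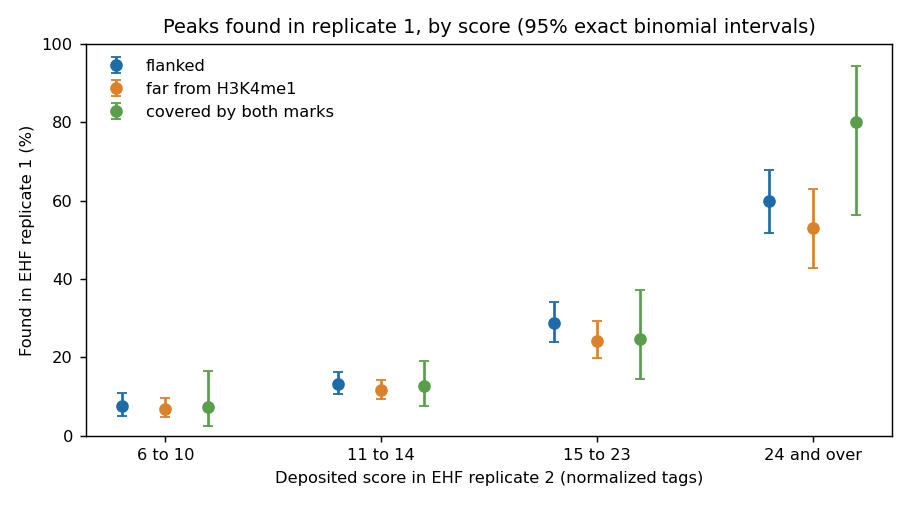
Share of EHF replicate 2 peaks found in replicate 1 (y axis, percent) by deposited replicate 2 score in normalized tags (x axis), for flanked peaks, peaks far from H3K4me1 and peaks covered by both marks, with 95% exact binomial intervals. The share rises with the score in each group, from 7.67% to 60% for flanked peaks, and the intervals of the groups overlap in every score class.

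Within the flanked peaks, recurrence differed with the place of the H3K4me1 region. These comparisons were chosen after the values were seen. Where the nearest H3K4me1 region lay wholly inside the host H3K27ac region, 197 of 763 peaks were found in replicate 1 (25.8%, 95% exact interval 22.7% to 29.1%). Where it crossed the border the count was 55 of 340 (16.2%, 12.4% to 20.5%), and where it lay outside it was 36 of 311 (11.6%, 8.24% to 15.7%). The difference between inside and outside was 14.2 points (odds ratio 2.66, 95% interval 1.80 to 4.02; Fisher's exact test, adjusted p = 5.7e-07), and between inside and crossing it was 9.64 points (odds ratio 1.80, 1.28 to 2.56; Fisher's exact test, adjusted p = 0.00105). All these peaks lie in H3K27ac, where 17.9% of replicate 2 peaks were found. The interval for H3K4me1 inside the host lies above that share, the interval for crossing includes it and the interval for outside lies below it.

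Several quantities moved with this split. The median host width was 4033 bp for inside, 2294.5 bp for crossing and 1572 bp for outside, and the nearest H3K4me1 edge was a median of 439, 493 and 1240 bp away. The split is drawn at the host border and so fixes both quantities in part. Inside and outside were not compared within classes of that distance. The median replicate 2 score was 13, 12 and 12. Within score classes the difference between inside and outside was 12.1 points (exact Mantel-Haenszel test, p = 9.0e-07), and within quartile classes of host width it was 10.9 points (p = 0.00108 by the same exact test). The narrowest class, hosts under 1782.5 bp, held 188 of the 311 peaks with H3K4me1 outside. There 9 of 57 peaks with it inside (15.8%), 20 of 109 with it crossing (18.3%) and 21 of 188 with it outside (11.2%) were found. The gap between inside and outside was widest in hosts of 1782.5 to 2812 bp, at 43 of 162 (26.5%) against 8 of 81 (9.88%). In hosts of 2812 to 4777 bp the counts were 64 of 236 (27.1%) and 4 of 30 (13.3%). In hosts of 4777 bp or more they were 81 of 308 (26.3%) and 3 of 12 (25%), so that the classes differed in the size of the gap, a difference that was not tested. With the replicates exchanged, 195 of 283 flanked replicate 1 peaks with H3K4me1 inside (68.9%) and 34 of 62 with it outside (54.8%) were found in replicate 2 (Fisher's exact test, p = 0.0383). The difference between inside and crossing, 5.98 points in that exchange, did not pass (Fisher's exact test, p = 0.302).

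**Figure D4:**
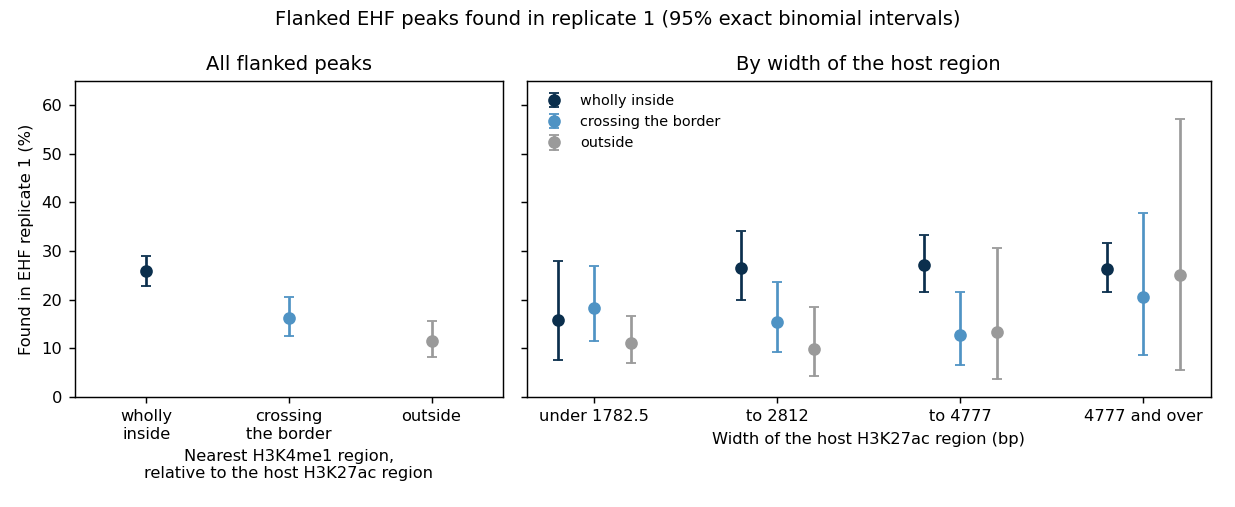
Share of flanked EHF peaks found in replicate 1 (y axis, percent, 95% exact binomial intervals) by the place of the nearest H3K4me1 region relative to the host H3K27ac region, for all flanked peaks (left, x axis: place) and by width of the host region in bp (right, x axis: quartile classes). Overall the share is 25.8% for inside, 16.2% for crossing and 11.6% for outside; in the widest hosts the outside group holds 12 peaks.

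Peaks with H3K4me1 on both sides were found in replicate 1 at 77 of 314 (24.5%, 95% exact interval 19.9% to 29.7%), and those with it on a single side at 211 of 1100 (19.2%, 16.9% to 21.6%). This difference of 5.34 points did not pass after adjustment (odds ratio 1.37, 1.00 to 1.86; Fisher's exact test, p = 0.0468, adjusted p = 0.0561). The peaks on a single side were above the far peaks by 3.66 points (Fisher's exact test, adjusted p = 0.0215), but by 1.23 points within score classes (exact Mantel-Haenszel test, p = 0.402). Along the distance to H3K4me1 the share was 22.9% of 284 peaks up to 250 bp, 22.7% of 344 from 250 to 500 bp and 20.3% of 394 from 500 to 1000 bp. It was 19.7% of 234 from 1000 to 1500 bp and 12.03% of 158 from 1500 to 2000 bp. Past the limit it was 13.3% of 226 peaks between 2000 and 3000 bp and 17.3% of 237 between 3000 and 5000 bp. Further out it was 17.4% of 265 from 5000 to 10000 bp, 13.6% of 558 from 10000 to 50000 bp and 17.6% of 318 past that. The share did not fall steadily with distance, and the 95% exact interval from 1500 to 2000 bp (7.40% to 18.1%) includes every share past the limit. Scores of 24 or more also varied along the distance, from 10.2% of peaks up to 250 bp and 13.96% from 500 to 1000 bp to 5.70% from 1500 to 2000 bp and 5.31% from 2000 to 3000 bp. Their part in the shares was not tested.

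The 288 flanked peaks seen in both EHF libraries met 288 different replicate 1 peaks. The paired centres lay a median of 23 bp apart (quartiles 10 and 38 bp, highest 134), and at 159 sites (55.2%) they were within 25 bp. The replicate 1 score of these sites had a median of 11 (7 to 30) and the replicate 2 score a median of 18 (8 to 76). Across the 288 sites Spearman's rho between the scores was 0.58 and Pearson's r was 0.66, given as a description, since sites share their libraries and input. Judged at the replicate 1 peak, 281 of the 288 (97.6%) were again flanked, 6 met an H3K4me1 region and 1 was past the limit.

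The 12 flanked sites that ranked best by the mean of their score ranks in both EHF lists scored from 18 to 30 in replicate 1 and from 32 to 76 in replicate 2. They lay on 5 chromosomes, 5 of them on chromosome 3, which held 10.8% of all flanked peaks. The nearest H3K4me1 region was wholly inside the host H3K27ac region at 11 of the 12 and crossed its border at 1. It was inside at 54.0% of all flanked peaks, and at 197 of the 288 that were found in replicate 1. At the 12 sites the nearest H3K4me1 edge lay 158 to 1125 bp from the centre, and 2 sites had the mark on both sides. The hosts were 2011 to 7915 bp wide. The rank itself used the scores and took only sites found in replicate 1, so these values describe the leading sites only.

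The first site, at 58406129 to 58406253 on chromosome 20, scored 28 in replicate 1 and 76 in replicate 2, the highest replicate 2 score of all flanked peaks. Its centres in the 2 replicates lay 2 bp apart. It sat in a gap of 664 bp between H3K4me1 regions 265 and 400 bp from its centre, in an H3K27ac region from 58400490 to 58408404. The second lay on chromosome 3 at 170720020 to 170720144. It scored 28 and 52, and its nearest H3K4me1 region, 755 bp wide, began 1125 bp away. The third, on the same chromosome at 185255332 to 185255456, scored 30 and 49, the highest replicate 1 score among flanked peaks, with H3K4me1 696 bp away. On chromosome 8, the fourth site, at 31691166 to 31691290, scored 25 and 51 with H3K4me1 456 bp away. The fifth was on chromosome 20, at 50361245 to 50361369, with scores of 19 and 57 and H3K4me1 541 bp away. Replicate 2 scored higher than replicate 1 at each of these 5 sites. The site at 161033818 to 161033942 on chromosome 3 was the other with the mark on both sides. It scored 21 and 36, and its gap of 1881 bp was spanned by H3K27ac that was 3933 bp wide. The site whose H3K4me1 crossed the border, at 29952658 to 29952782 on chromosome 18, scored 27 and 38 and had an H3K4me1 region of 2165 bp, the widest nearest flank of the 12.

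**Figure D5:**
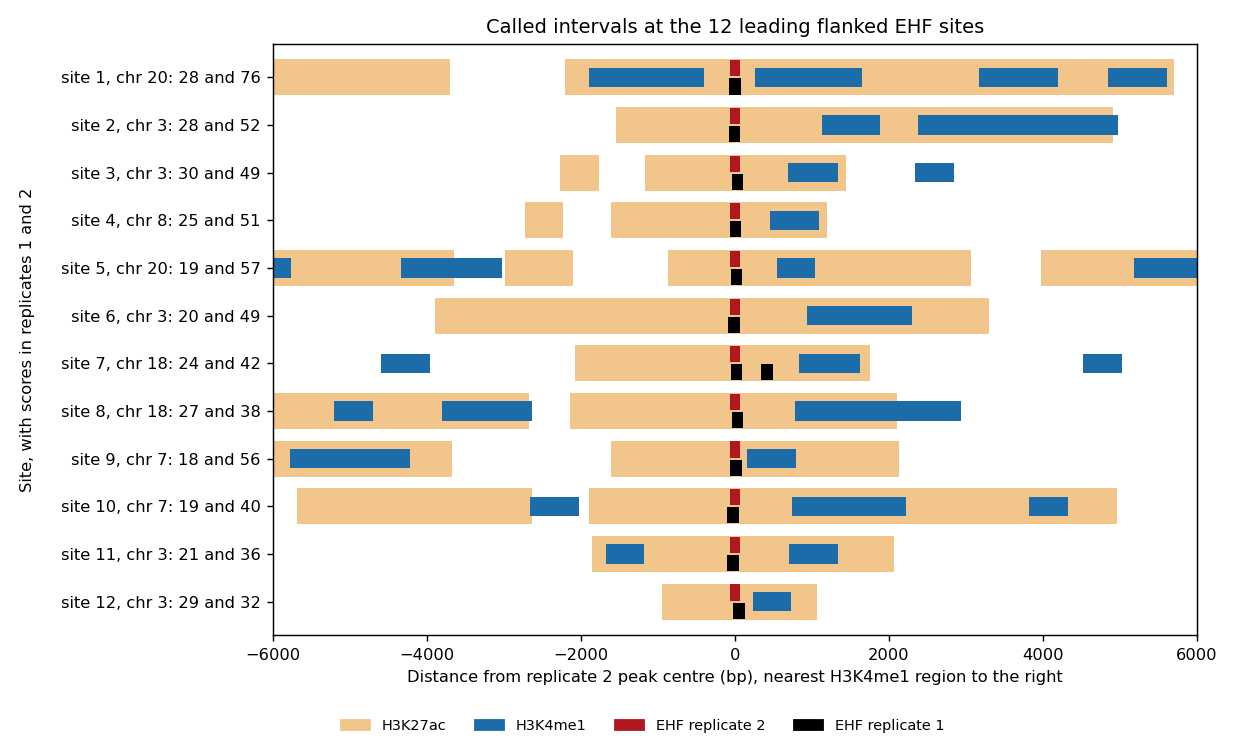
Called H3K27ac regions (tan), H3K4me1 regions (blue), EHF replicate 2 peaks (red) and EHF replicate 1 peaks (black) within 6000 bp of the 12 leading flanked EHF sites (rows, with chromosome and scores in replicates 1 and 2), against distance from the replicate 2 peak centre in bp (x axis, nearest H3K4me1 to the right). The EHF peaks of both replicates sit in H3K27ac with H3K4me1 to one side, and at sites 1 and 11 to both sides within 2000 bp.

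The 5 narrowest gaps between H3K4me1 regions that held a flanked EHF peak were 504 to 512 bp. The caller's 500 bp windows and its minimum distance of 1000 bp between mark peaks limit how narrow a gap can be listed. The narrowest, at 34674808 to 34674932 on chromosome 20, had the centre 245 and 260 bp from the regions on its sides, in an H3K27ac region of 7471 bp with a score per kb of 115. It scored 16 in replicate 1 and 17 in replicate 2. The other 4, on chromosomes 10, 16, 4 and 13, scored 10 to 13 in replicate 2 and were not found in replicate 1. Among all 314 peaks with H3K4me1 on both sides 24.5% were found, and 5 sites are too few to compare with that share. The peak on chromosome 10, at 45476690 to 45476814, lay 79 bp from an H3K4me1 region of 2995 bp.

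A few broad H3K27ac regions held several flanked peaks. A single flanked peak was held by 1287 regions, 2 by 53, 3 by 5 and 6 by 1. That one, from 56258787 to 56290172 on chromosome 20, was 31386 bp wide with a score per kb of 197. It met 6 H3K4me1 regions and held 9 replicate 2 peaks in all. Its 6 flanked peaks spread over 23519 bp with replicate 2 scores of 11 to 26, and 1 of them was found in replicate 1. The region from 185043161 to 185062244 on chromosome 3 held 3 flanked peaks with scores of 20 to 25. All 3 had H3K4me1 on both sides and none was found in replicate 1. The region from 52718771 to 52744725 on chromosome 20 met 7 H3K4me1 regions and held 3 flanked peaks, 1 of them found. The regions from 156083172 to 156100921 on chromosome 1 and from 45980215 to 45990874 on chromosome 20 held 3 each, with none found. Of all flanked peaks 20.4% were found in replicate 1, and the peaks of these regions were not tested against that share.

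On each side of the rule's limit the median replicate 2 score was 12, from 1500 to 2000 bp and from 2000 to 3000 bp. The 3 flanked peaks furthest from H3K4me1 lay 1990 to 1999 bp away and scored 11, 13 and 14 in replicate 2. The 3 far peaks nearest to the limit lay 2002 to 2003 bp away and scored 10, 11 and 8. None of the 6 was found in replicate 1. The share found was 12.03% of all peaks from 1500 to 2000 bp and 13.3% from 2000 to 3000 bp. So few peaks cannot show a difference from these shares.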

How the data were processed

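The 4 interval lists used were 1 each for EHF replicates 1 and 2, H3K4me1 and H3K27ac (inputs not analysed here). The genome build was hg19 and the tools were HOMER 1.2 and Bowtie 1.0.0, per the submitters' processing notes. Per the file headers, the authors called each library separately with findPeaks (factor style for EHF, histone style for marks) at a false discovery rate of 0.01, and required 4-fold over input and over the surrounding 10000 bp. Per the file headers, the deposited score is a normalized tag count per interval that the authors scaled to 10000000 tags, here whole numbers. A fold rule drops weak or broad signal, so a missing interval did not necessarily lack the mark.

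Overlaps of at least 1 bp, distances, exact intervals and Fisher's tests were computed with Python 3.11.15, pandas 2.3.3 and scipy 1.17.1, and exact Mantel-Haenszel tests with R 4.3.3. The scripts were tested on simulated data. Score classes were 6 to 10, 11 to 14, 15 to 23, and 24 or more. Exact intervals are at 95% and cover counting error only, because neighbouring intervals and amplified tags are not independent. Named sites were the 12 best by mean rank in both EHF lists, the 5 narrowest gaps, the 5 H3K27ac regions with the most flanked peaks and the 3 peaks on each side of the limit. Members and rules were chosen with earlier results of these data known. Planned comparisons with gene starts and motifs need hg19 genes and sequence and were not run.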

Additional observations from a re-analysis of the deposited data

How the results depend on the processing

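Of 103 alternative values, 78 kept their direction and their side of the 0.05 threshold (unadjusted p), or stayed within the 95% interval or within 1.5 times the count. The higher recurrence of flanked than of far peaks, 4.84 points, ran from 0.462 to 6.09 points. It missed the threshold within score classes (2.41 points, p = 0.0728, exact test) and without EHF replicate 2, that is with the replicates exchanged (0.462 points). Against peaks in both marks the 1.81 points turned to -0.22 within score classes and passed at 13.5 points without EHF replicate 2; the cause was not tested. Inside against outside the host passed under all 13 alternatives run, at 10.9 to 16.3 points (unadjusted exact p of 2.7e-08 to 0.0383), and inside against crossing missed it without EHF replicate 2 (5.98 points). Both sides against a single side missed it within host width classes (3.50 points), at the peak centre (4.76), with a limit of 1000 bp (6.44), with scores of 12 or more (4.25), with H3K4me1 scores at or above the median (1.25), without EHF replicate 2 (6.73) and in hosts of at least 1782.5 bp (5.16). The share with H3K4me1 on both sides moved to 16.9% and 30.6% with limits of 1000 and 5000 bp and to 17.4% with the higher H3K4me1 scores. The share whose nearest H3K4me1 met the host moved to 91.0% and 65.5% with those limits, 80.3% with the higher H3K4me1 scores and 85.7% without EHF replicate 2. The median host width moved to 2978 bp with the higher H3K4me1 scores, 2889.5 bp with H3K27ac merged across 1000 bp and 3087 bp without EHF replicate 2. The number of flanked peaks moved to 894 with scores of 12 or more and 434 without EHF replicate 2, and the median distance to 489.5 bp. Leaving out EHF replicate 1 leaves the classes as they are and gives no recurrence. Splits by host width, by host placement, by side and without chromosomes 3 and 20 were chosen after seeing the data. No paired analysis was possible because replicate numbers are given to EHF alone and no fit between groups was made. Replicate 1, with 0.155% of tags in peaks, limits what recurrence can show for weak peaks.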

Other observations

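Flanked EHF peaks were found on 23 chromosomes and made up 42.7% of the replicate 2 peaks in H3K27ac (1414 of 3309). Chromosome 3 held the most, 153 or 10.8% of them, against 9.43% of the replicate 2 peaks in H3K27ac and 7.07% of the H3K27ac regions. Chromosome 20 held 65 flanked peaks (4.60%), 4.50% of the replicate 2 peaks in H3K27ac and 2.36% of the H3K27ac regions, and its 43.6 flanked peaks per 100 in H3K27ac lie close to the share over all chromosomes. Chromosome X was below that share, with 8 flanked peaks among 43 in H3K27ac, or 18.6 per 100, and so was chromosome 19, with 41 among 139, or 29.5 per 100. Chromosome 8 was above it, with 84 among 165, or 50.9 per 100. These differences between chromosomes were not tested. These are counts in 1 cell line, whose copy number was not examined.

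The flanked share was somewhat higher in the shorter EHF list. Of the peaks in H3K27ac and outside H3K4me1, 52.8% were flanked in replicate 1 (434 of 822, 95% exact interval 49.3% to 56.3%) and 46.9% in replicate 2 (1414 of 3018, 45.1% to 48.7%). The difference was not tested, because the lists share 281 sites that were flanked in both.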
